A study of Mus musculus with 6 samples.

Results

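The genes described here are 46 regulators of the cell division cycle: cyclins, the cyclin-dependent kinases (CDKs) that they activate, the phosphatases and kinases that switch CDK activity, the E2F transcription factors with their pocket protein partners, and regulators of the anaphase-promoting complex (APC/C), a ubiquitin ligase. They were taken by name, with no filter on signal, and 45 of the 46 were matched through the platform annotation to 111 of the 45037 probe sets on the array. Ccnb1, which encodes cyclin B1, is not analysed here. RNA came from mesenteric arteries, which feed the intestine, of 6 mice of mixed background, including FVB, SVJ129 and C57BL/6, all 7 weeks old. Every mouse carried loxP-flanked alleles of Itgb1, the gene of beta1 integrin, and every mouse was given 1 mg of tamoxifen daily for 14 days from 5 weeks of age. The 3 control mice (animal numbers 30, 74 and 75) had no Cre recombinase. The 3 knockout mice (72, 73 and 86) were positive for sm22alphaCRE, a Cre driven by the promoter of a smooth muscle gene, so deletion was directed at smooth muscle and not at the other cells of the vessel wall. Vessels were cleared of adipose and lymph tissue, and whole vessels were extracted, so that more cells of a type and more RNA per cell cannot be told apart.

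In a resting adult artery most smooth muscle cells are out of the cell cycle, and pocket proteins bound to repressive E2Fs keep cell cycle genes silent. Growth signals induce D-type cyclins, which with Cdk4 and Cdk6 inactivate the pocket proteins, and E2F activators then induce cyclin E and the genes of DNA synthesis. Late in the cycle B-Myb and FoxM1, acting with the MuvB complex, induce the genes of G2 and mitosis, and the APC/C then destroys cyclins A and B and securin to end mitosis.

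The value table holds 1 intensity per probe set and array. Array medians ran from 62.8 to 72.6 on this scale, and the table has no detection calls. Values are given as log2(intensity + 1) after quantile normalization, and differences are knockout minus control on that scale. Where a gene has several probe sets, the brightest over the 6 arrays stands for it, and it passed the threshold where the adjusted p of limma, over all 45037 probe sets, was under 0.05. The targeted gene Itgb1 lay at 11.80, 11.04 and 11.20 in controls 30, 74 and 75 and at 10.51, 10.56 and 10.76 in knockouts 72, 73 and 86, with no overlap (difference -0.73, SE 0.24, adjusted p = 0.323; 2-sided exact permutation p = 0.1, the smallest that 3 arrays against 3 allow). Tagln, the SM22alpha gene, was at 13.67 ± 0.13 (SD, n = 3) in controls against 13.34 ± 0.15 (SD, n = 3) in knockouts (adjusted p = 0.479). Xist, which marks female cells, lay at 11.83 in knockout 86 and between 5.29 and 6.09 on the other 5 arrays, so the knockout group held 1 female and the control group none.

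Of the 45 members, 7 were higher in knockout arteries past the threshold: Ccna2, Ccnb2, Cdk1, Ube2c, Cks2, E2f8 and Melk, each by at least 9.32-fold. None was lower past the threshold (limma), although 2 were lower and 20 higher at an unadjusted p under 0.05, which 13.7% of all genes reached in either direction. Among all 18193 genes, represented in the same way, 91 were higher past the threshold, which is 0.5%, and 6 were lower, which is 0.033% (0.533% in either direction). In 22 members every knockout array lay above every control array, against 10.4% of all genes, and in 2 members, Pttg1 and Rbl2, every knockout array lay below, against 12.7% of all genes. A difference above 0 was found in 36 of the 45 members, against 42.6% of all genes, and the median difference was 0.51 over the members and -0.066 over all genes. Counted by probe set, 12 of the 111 were higher past the threshold and 0 lower (limma; 47 at an unadjusted p under 0.05), against 0.366% higher and 0.4% in either direction over all probe sets. That some of these genes differ in these arrays was known when the members were chosen. The other 38 members did not pass the threshold, and among them Ccnf, Ccne2 and Cdc20 lay just outside it (adjusted p = 0.0505, 0.0544 and 0.0544).

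**Figure D1:**
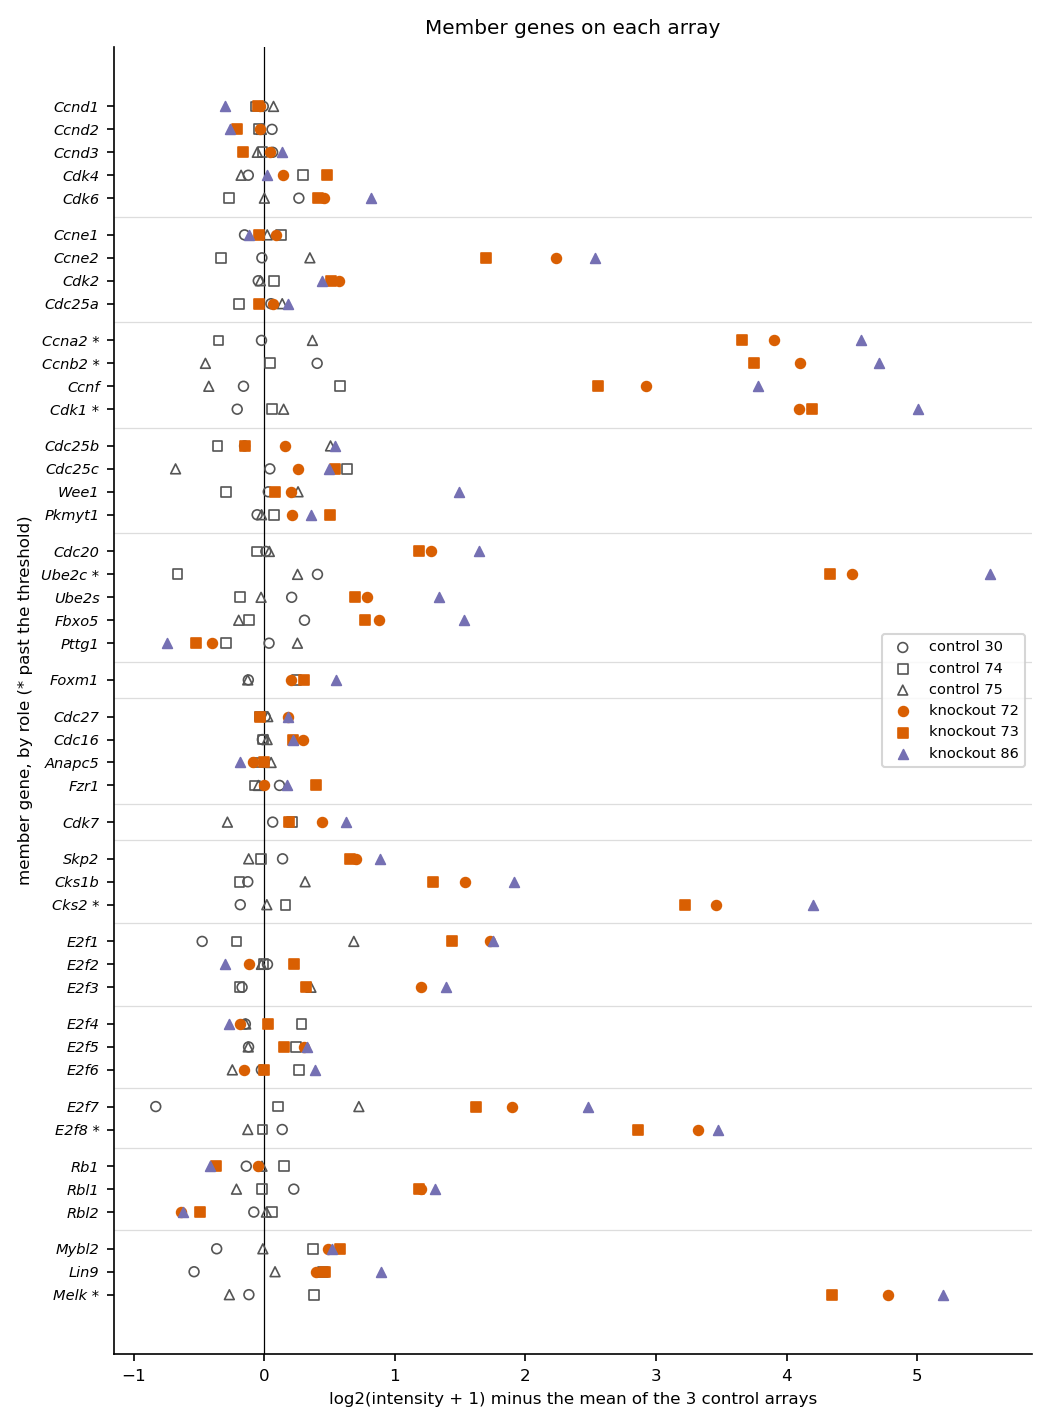
Level of each of the 45 member genes on each array, as log2(intensity + 1) minus the mean of the 3 control arrays (x axis), by role (y axis); open grey symbols are controls, filled symbols knockouts, and an asterisk marks the 7 genes past the threshold. The brightest probe sets of the D-type cyclins overlap between the groups, whereas Ccna2, Ccnb2, Cdk1, Ube2c, Cks2, E2f8 and Melk lie above every control array on all 3 knockout arrays.

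The comparison of phases set 9 members that act in G1 or at entry into S phase against 15 that act in G2 or mitosis, of which 14 are on the array. Of the 9 G1 members, 0 passed the threshold in limma and 3 had an unadjusted p under 0.05; their median difference was 0.071, with a range from -0.17 to 2.16. Of the 14 G2/M members, 4 were higher past the threshold, 9 had an unadjusted p under 0.05, a level that 13.7% of all genes reached, and 13 had a difference above 0. Their median difference was 1.00, with a range from -0.55 to 4.80. The G2/M median on each array lay between 6.75 and 6.81 in the controls and between 8.04 and 9.21 in the knockouts, which do not overlap. The G1 median lay between 8.95 and 9.21 in the controls and between 9.15 and 9.60 in the knockouts, which do overlap. The means per array did not overlap in either class: they ran from 8.96 to 9.04 in the controls and from 9.29 to 9.40 in the knockouts for G1, and from 6.76 to 6.86 and from 8.37 to 9.01 for G2/M. The means of the D-type cyclins, Cdk4 and Cdk6 alone ran from 10.36 to 10.44 and from 10.47 to 10.51. These medians and means are descriptions, and the difference between the classes was not tested. With the D-type cyclins, Cdk4 and Cdk6 alone as the G1 class the median was 0.0028, and with 6 narrowly mitotic genes as the G2/M class (Ccnb2, Cdk1, Cdc20, Ube2c, Pttg1 and Cdc25c) it was 2.78. When all probe sets of a gene were averaged, the G1 median was 0.32 and the G2/M median 1.22.

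**Figure D2:**
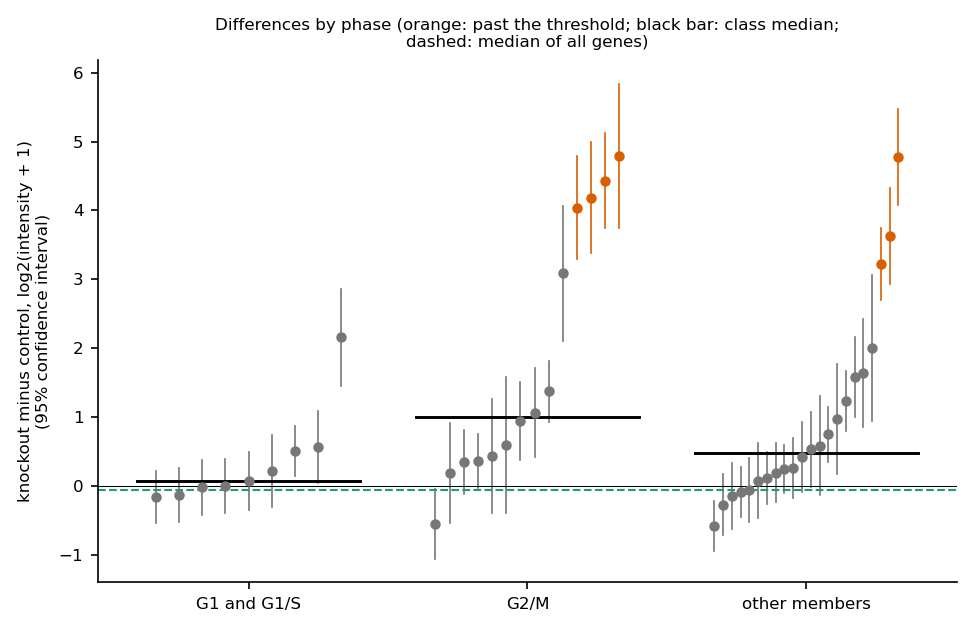
Knockout minus control difference on the log2(intensity + 1) scale (y axis) with its 95% confidence interval for each member, in 3 classes (x axis); orange marks genes past the threshold, black bars the class medians and the dashed line the median of all genes. The G1 median lies at 0.071 with Ccne2 alone above 2, and the G2/M median at 1.00 with Ccna2, Ccnb2, Cdk1 and Ube2c above 4.

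The D-type cyclins link growth signals to the cycle, and none of their genes passed the threshold. Ccnd1 lay at 11.25, 11.19 and 11.33 in controls 30, 74 and 75 and at 11.22, 11.21 and 10.95 in knockouts 72, 73 and 86, a difference of -0.13 (95% confidence interval -0.52 to 0.27). Ccnd2 lay at 11.75, 11.65 and 11.66 in the controls and 11.66, 11.48 and 11.42 in the knockouts, a difference of -0.17 (95% confidence interval -0.54 to 0.21). Ccnd3 lay at 10.48, 10.40 and 10.36 and at 10.45, 10.25 and 10.54, a difference of 0.0028 (95% confidence interval -0.39 to 0.40). By these brightest probe sets the groups overlapped in all 3 cyclins, and the intervals exclude a change of 1 on the log2 scale in either direction, though they do not show that the levels were equal. Some dimmer probe sets had wider intervals that reach past 1. The other dimmer ones, all of Ccnd1 or Ccnd2, excluded such a change. Examples are 1448698_at of Ccnd1 (95% confidence interval -0.72 to 0.44) and 1416122_at of Ccnd2 (-0.54 to 0.24). In Ccnd2, 1416124_at stood at 0.61 (95% confidence interval 0.016 to 1.19), with every knockout above every control. In Ccnd3, 1444323_at stood at -0.57 (95% confidence interval -1.21 to 0.061), with every knockout below, and in Ccnd1, 1417419_at stood at 0.52 (95% confidence interval -0.87 to 1.91), with overlap.

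Neither kinase partner passed the threshold. Cdk4 lay at 9.0, 9.42 and 8.95 in the controls and 9.27, 9.60 and 9.15 in the knockouts (difference 0.22, SE 0.22, adjusted p = 0.71), so that the groups overlapped. Its dimmer probe sets stood at 0.33 and 0.31, also with overlap. The brightest probe set of Cdk4, 1422441_x_at, carries the suffix x, which marks probes that may match other sequences. Cdk6 lay at 9.75, 9.21 and 9.48 in the controls and 9.94, 9.89 and 10.30 in the knockouts, with no overlap. Its difference of 0.56 (SE 0.22, 95% confidence interval 0.04 to 1.09) did not pass the threshold (adjusted p = 0.371), and its 2 other probe sets stood at 0.41 and 0.13.

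The products of the cyclin E genes activate Cdk2 at entry into S phase, and neither gene passed the threshold. Ccne2 lay at 5.41, 5.10 and 5.78 in the controls and at 7.67, 7.13 and 7.96 in the knockouts, all above the controls. The difference of 2.16 (SE 0.29, 4.45-fold) missed the threshold (adjusted p = 0.0544) and passed it with a trended robust variance prior (adjusted p = 0.0123). Ccne1, by its brighter probe set, lay at 6.59, 6.86 and 6.76 in the controls and 6.83, 6.70 and 6.62 in the knockouts, which overlap. Its other probe set, 1416492_at, lay at 5.30, 5.38 and 4.26 in the controls and 6.19, 6.00 and 6.29 in the knockouts. That difference was 1.18 (SE 0.33, adjusted p = 0.263), so the probe sets of Ccne1 disagree. The brighter one, 1441910_x_at, carries the suffix x for probes that may match other sequences, so its value is uncertain.

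Cdk2 and its phosphatase did not pass the threshold. Cdk2 lay at 8.23, 8.35 and 8.25 in the controls and 8.85, 8.78 and 8.72 in the knockouts (difference 0.51, SE 0.15, adjusted p = 0.281), without overlap. The second probe set of Cdk2 was dim and stood at 0.13. Cdc25a, the phosphatase that activates Cdk2, lay at 8.67, 8.43 and 8.76 in the controls and 8.69, 8.58 and 8.80 in the knockouts, with a difference of 0.071 (SE 0.17, adjusted p = 0.887) and overlap. Its dimmer probe sets, 1417131_at and 1445995_at, stood at 0.62 and 0.50 (adjusted p = 0.425 and 0.65), also with overlap.

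Of the 3 cyclins of the later phases, Ccna2 and Ccnb2 were higher in knockout arteries past the threshold and Ccnf was not. Ccna2 (probe set 1417910_at), the cyclin of S phase and G2, lay at 6.40, 6.07 and 6.79 in controls 30, 74 and 75 and at 10.32, 10.07 and 10.98 in knockouts 72, 73 and 86. Ccna2 rose by 4.04 (SE 0.31, 16.5-fold, adjusted p = 0.0147), and its second probe set rose by 3.63 (adjusted p = 0.0161). Ccnb2 (1450920_at), a mitotic cyclin, lay at 4.70, 4.34 and 3.85 in the controls and 8.40, 8.04 and 9.0 in the knockouts. Ccnb2 rose by 4.19 (SE 0.33, 18.2-fold, adjusted p = 0.0147). For both genes the lowest knockout array lay more than 3 above the highest control array, and knockout 86 was the highest.

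Cdk1 (1448314_at), the kinase that cyclins A and B activate to drive mitosis, followed the same order of groups. It lay at 5.39, 5.65 and 5.74 in the controls and 9.69, 9.79 and 10.60 in the knockouts, and rose by 4.44 (SE 0.28, 21.6-fold, adjusted p = 0.0121). Ccnf, which encodes the F-box protein cyclin F, lay at 3.45, 4.19 and 3.19 in the controls and 6.54, 6.17 and 7.40 in the knockouts. Its difference of 3.09 (SE 0.40, 8.50-fold) just missed the threshold (adjusted p = 0.0505), and its second probe set stood at 2.85 (adjusted p = 0.0543). The groups of Ccnf do not overlap, and with a trended robust prior it passed (adjusted p = 0.0121).

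Promoters of members that moved together are shown with the elements through which late cell cycle genes are known to be repressed in resting cells and induced in G2: the cell cycle homology region (CHR, TTTGAA), bound by the MuvB complex, and the CCAAT box (CCAAT), bound by NF-Y. The E2F element was searched as TTTCCCGC or TTTGGCGC. Each window runs from 250 bases before to 50 bases after a RefSeq start site in GRCm38.p6 and is printed on the strand of the gene, with matches on either strand in capitals. The first 4 belong to genes past the threshold; Cdk2 is shown as a G1/S member and Pttg1 as the G2/M member with lower values in the knockout.
Ccnb2: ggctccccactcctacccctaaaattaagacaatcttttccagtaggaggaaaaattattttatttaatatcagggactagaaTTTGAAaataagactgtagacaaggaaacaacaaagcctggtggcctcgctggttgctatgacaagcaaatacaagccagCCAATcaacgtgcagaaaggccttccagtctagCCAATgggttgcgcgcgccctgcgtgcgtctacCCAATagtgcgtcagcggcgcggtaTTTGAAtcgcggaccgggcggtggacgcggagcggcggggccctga
Cdk1: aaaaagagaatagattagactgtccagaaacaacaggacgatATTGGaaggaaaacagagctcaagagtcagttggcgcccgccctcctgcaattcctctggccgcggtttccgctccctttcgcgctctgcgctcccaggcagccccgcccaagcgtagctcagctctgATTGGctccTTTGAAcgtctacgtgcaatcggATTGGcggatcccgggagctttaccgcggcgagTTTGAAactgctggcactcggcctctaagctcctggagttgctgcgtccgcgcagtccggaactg
Ube2c: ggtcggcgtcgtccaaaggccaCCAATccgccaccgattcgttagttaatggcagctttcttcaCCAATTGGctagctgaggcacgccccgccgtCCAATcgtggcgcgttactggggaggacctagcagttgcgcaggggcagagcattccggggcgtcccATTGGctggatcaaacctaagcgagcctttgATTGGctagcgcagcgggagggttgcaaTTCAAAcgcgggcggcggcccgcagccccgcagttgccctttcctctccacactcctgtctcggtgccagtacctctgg
E2f8: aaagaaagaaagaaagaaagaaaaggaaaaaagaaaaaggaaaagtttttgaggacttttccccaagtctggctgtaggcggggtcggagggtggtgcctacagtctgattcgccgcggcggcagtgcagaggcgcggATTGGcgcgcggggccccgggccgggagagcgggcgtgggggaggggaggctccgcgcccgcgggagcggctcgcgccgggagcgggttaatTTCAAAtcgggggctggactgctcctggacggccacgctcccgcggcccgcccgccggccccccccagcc
Cdk2: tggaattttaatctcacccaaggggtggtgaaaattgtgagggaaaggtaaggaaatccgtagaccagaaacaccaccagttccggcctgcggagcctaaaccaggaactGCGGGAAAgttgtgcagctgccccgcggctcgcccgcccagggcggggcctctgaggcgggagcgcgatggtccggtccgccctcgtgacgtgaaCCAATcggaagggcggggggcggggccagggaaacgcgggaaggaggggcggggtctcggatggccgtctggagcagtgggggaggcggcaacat
Pttg1: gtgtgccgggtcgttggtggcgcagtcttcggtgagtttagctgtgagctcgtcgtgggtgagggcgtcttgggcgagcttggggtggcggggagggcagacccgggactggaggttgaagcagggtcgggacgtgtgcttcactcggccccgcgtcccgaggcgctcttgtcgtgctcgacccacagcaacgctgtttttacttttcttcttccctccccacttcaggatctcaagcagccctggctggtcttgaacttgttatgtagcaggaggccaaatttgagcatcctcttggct

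The windows lie at chr9:70421505-70421804 (Ccnb2, minus strand), chr10:69352863-69353162 (Cdk1, minus strand), chr2:164769679-164769978 (Ube2c, plus strand), chr7:48881547-48881846 (E2f8, minus strand), chr10:128705002-128705301 (Cdk2, minus strand) and chr11:43425932-43426231 (Pttg1, minus strand). In Ccnb2 CHR matches begin at position -167 from the start and at base 5 of the transcript, and 3 CCAAT matches lie upstream, at -87, -54 and -21. In Cdk1 CHR matches begin at -71 and -15, and CCAAT matches on the opposite strand at -208, -80 and -48. In Ube2c and E2f8 the CHR is read on the opposite strand, from positions -29 and -20. The Cdk2 window holds an E2F match and 1 CCAAT match but no CHR, and the Pttg1 window holds none of the 3 elements.

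Windows were given for 34 of the 46 members. A CHR match was present in 6 of 10 G2/M members and 0 of 6 G1 members with a window, and in 35.3% of all members with one, against 20.2% of all 27025 genes with a window. CCAAT was present in 8 of the 10 G2/M members, 3 of the 6 G1 members and 61.8% of all members, against 41.1% of all genes. An E2F match was present in 0 of the 10 G2/M members, 2 of the 6 G1 members and 14.7% of all members, against 1.8% of all genes. Of single windows in the whole table, 17.9% held a CHR, 37.4% a CCAAT and 1.56% an E2F match. Among the 6 genes past the threshold with a window, 4 held a CHR (Ccnb2, Cdk1, Ube2c and E2f8), while Cks2 and Melk did not. In the member windows no match of 1 element overlapped a match of another. These matches describe letters in a window and do not show binding.

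Cdk1 is switched by phosphatases and kinases, none of which passed the threshold by its brightest probe set. Cdc25b, an activating phosphatase, ranged from 6.92 to 7.79 in the controls and from 7.13 to 7.82 in the knockouts (difference 0.19, adjusted p = 0.824). Wee1, an inhibitory kinase, ranged from 7.66 to 8.21 in the controls and lay at 8.16, 8.04 and 9.44 in the knockouts (difference 0.59, SE 0.41, adjusted p = 0.587), so that knockout 86 alone stood above the controls. Pkmyt1, a second inhibitory kinase, lay at 7.36, 7.49 and 7.39 in the controls and 7.63, 7.92 and 7.77 in the knockouts (difference 0.36, adjusted p = 0.429), while its dimmer probe set stood at -1.49 (adjusted p = 0.303). None of these 3 genes passed the threshold.

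Cdc25c, the mitotic phosphatase of Cdk1, gave different answers by probe set. Its brighter probe set lay at 5.24, 5.83 and 4.52 in the controls and 5.46, 5.74 and 5.70 in the knockouts, which overlap (difference 0.43, SE 0.34, adjusted p = 0.639). The other, 1456077_x_at, lay at 3.31, 3.04 and 3.28 in the controls and 5.39, 5.42 and 5.85 in the knockouts, and rose by 2.34 (SE 0.20, adjusted p = 0.0161). The suffix x marks probes that may match other sequences, so this value is uncertain.

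Of the 5 genes of mitotic ubiquitination, Ube2c passed the threshold by its brightest probe set. Ube2c (1452954_at) encodes the E2 enzyme that starts ubiquitin chains for the APC/C, and lay at 5.06, 3.98 and 4.90 in the controls and 9.14, 8.98 and 10.21 in the knockouts. Ube2c rose by 4.80 (SE 0.43, 27.8-fold, adjusted p = 0.0182), the third largest difference of all 18193 genes, each by its brightest probe set. Ube2s, the E2 enzyme that extends those chains, lay at 10.25, 9.85 and 10.02 in the controls and 10.83, 10.74 and 11.38 in the knockouts, without overlap. Its difference of 0.94 (SE 0.23) did not pass (adjusted p = 0.22), and its dim second probe set stood at -0.22.

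Cdc20, the mitotic activator of the APC/C, lay by its brightest probe set at 7.78, 7.71 and 7.81 in the controls and 9.04, 8.96 and 9.42 in the knockouts. This difference of 1.37 (SE 0.18, 2.59-fold) just missed the threshold (adjusted p = 0.0544). The probe set 1439377_x_at rose by 3.23 (SE 0.30, adjusted p = 0.0204), from 6.28, 6.39 and 6.79 to 9.70, 9.21 and 10.24. The probe set 1439394_x_at was at the floor of the table, an intensity of 1, on all 3 control arrays and at 6.39, 6.15 and 7.10 in the knockouts (adjusted p = 0.0121). All probe sets of Cdc20 had every knockout array above every control array, but the size of the difference depended on the probe set, and both that passed carry the suffix x.

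Fbxo5, which encodes the APC/C inhibitor Emi1, lay at 7.33, 6.91 and 6.82 in the controls and 7.90, 7.79 and 8.55 in the knockouts (difference 1.06, SE 0.27, adjusted p = 0.224), without overlap. Pttg1, which encodes securin, a substrate of the APC/C, ran the other way. It lay at 11.69, 11.36 and 11.91 in the controls and 11.26, 11.13 and 10.91 in the knockouts, all below the controls. The difference of -0.55 (SE 0.21) did not pass the threshold (adjusted p = 0.364), and the 2 other probe sets of Pttg1 both stood at -0.64 (adjusted p = 0.394 and 0.294). Pttg1 was thus the single G2/M member with a difference below 0.

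None of the APC/C core genes, nor Fzr1, passed the threshold. Cdc27 ranged from 9.325 to 9.39 in the controls and 9.33 to 9.54 in the knockouts, and Anapc5 from 11.77 to 11.88 and 11.64 to 11.83. Cdc16 lay at 10.04, 10.04 and 10.07 in the controls and 10.35, 10.27 and 10.27 in the knockouts, which do not overlap (difference 0.25, adjusted p = 0.528). Fzr1, which encodes Cdh1, the activator of the APC/C in G1, was at 7.86 ± 0.10 (SD, n = 3) in controls against 8.05 ± 0.20 (SD, n = 3) in knockouts (adjusted p = 0.684). By these brightest probe sets the 4 differences lay between -0.090 and 0.25. Of the dimmer ones, Anapc5 1453307_a_at stood at 0.62 (adjusted p = 0.384), with every knockout above every control, and Cdc27 1433849_at at 0.43 (adjusted p = 0.496), with overlap. Cdk7, the kinase that activates other CDKs, had a difference of 0.42 (SE 0.21, adjusted p = 0.473), while 3 of its 4 other probe sets had differences below 0.

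The small CKS proteins bind CDKs, and Cks1b also serves the ubiquitin ligase SCF-Skp2, which removes the CDK inhibitor p27. Cks2 (1417457_at) lay at 6.82, 7.16 and 7.02 in the controls and 10.46, 10.22 and 11.20 in the knockouts. Cks2 rose by 3.63 (SE 0.29, 12.4-fold, adjusted p = 0.0147), and its second probe set by 3.92 (adjusted p = 0.0198). Cks1b lay at 9.14, 9.08 and 9.58 in the controls and 10.80, 10.56 and 11.18 in the knockouts, a difference of 1.58 (SE 0.24, 2.99-fold, adjusted p = 0.0765), and its second probe set stood at 1.72. Both CKS genes separated the groups on every probe set, and Cks2 alone of them passed the threshold; the difference between them was not tested. Skp2 lay at 6.60, 6.43 and 6.34 in the controls and 7.16, 7.12 and 7.34 in the knockouts (difference 0.75, SE 0.17, adjusted p = 0.183), and its 5 other probe sets stood between 0.18 and 1.86.

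**Figure D3:**
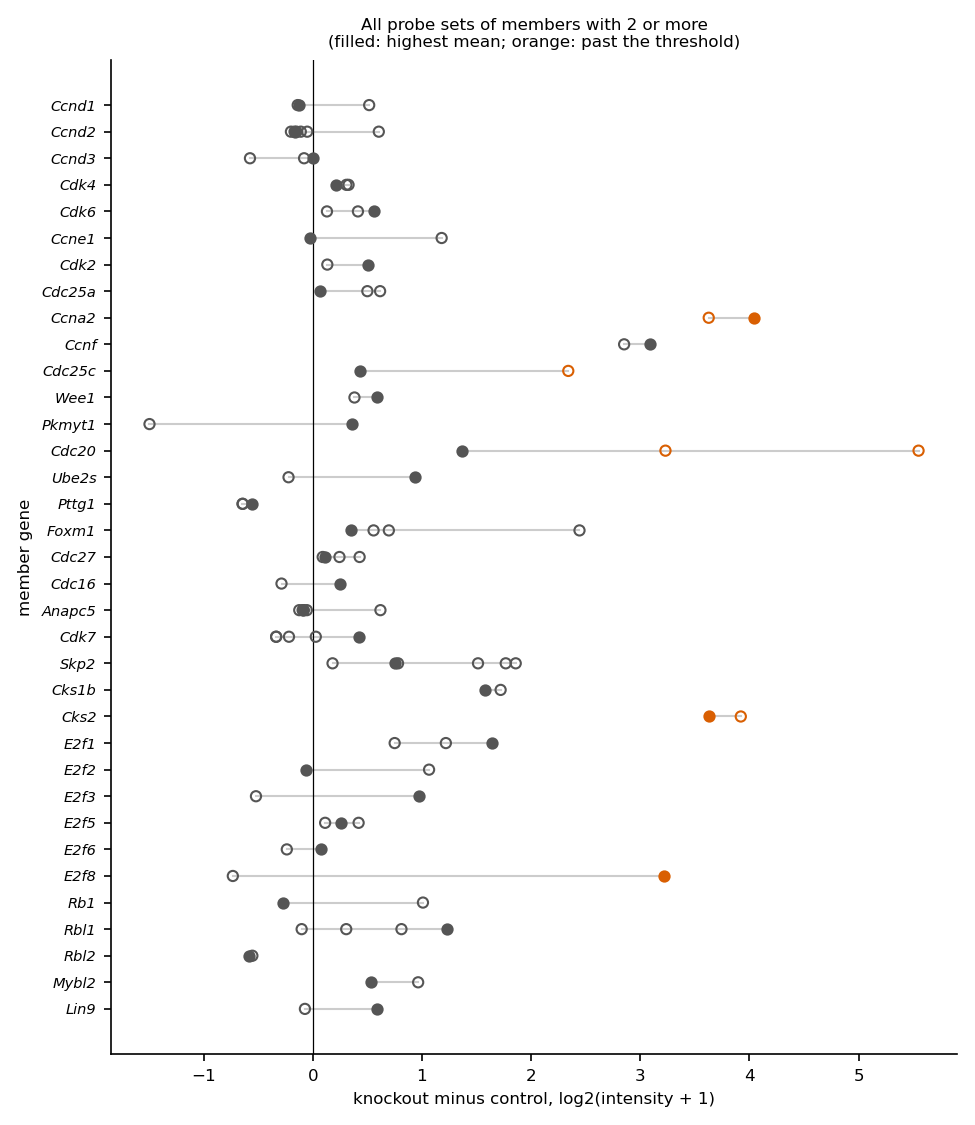
Knockout minus control difference on the log2(intensity + 1) scale (x axis) of every probe set of the 35 members with 2 or more (y axis); filled points are the probe sets with the highest mean and orange marks those past the threshold. In 19 of the 35 genes all probe sets lie on 1 side of 0, while the probe sets of E2f8 run from -0.73 to 3.22 and those of Pkmyt1 from -1.49 to 0.36.

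Of the E2F activators, E2f1 lay at 4.50, 4.76 and 5.66 in the controls and 6.70, 6.41 and 6.72 in the knockouts, without overlap. Its difference of 1.64 (SE 0.33, 3.12-fold) did not pass the threshold (adjusted p = 0.148). E2f3 lay at 6.83, 6.81 and 7.36 in the controls and 8.21, 7.32 and 8.39 in the knockouts, where knockout 73 fell within the control range (difference 0.97, adjusted p = 0.332). E2f2 had a difference of -0.061 by its brighter and 1.07 by its dimmer probe set (adjusted p = 0.913 and 0.351). E2f4, E2f5 and E2f6, repressors that are known to occupy promoters in resting cells, had differences of -0.14, 0.26 and 0.077 with overlapping groups.

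E2f7 and E2f8 encode atypical repressors and are themselves known E2F targets; E2f8 passed the threshold and E2f7 did not. E2f8 (1436186_at) lay at 3.91, 3.75 and 3.64 in the controls and 7.09, 6.63 and 7.25 in the knockouts, and rose by 3.22 (SE 0.22, 9.32-fold, adjusted p = 0.0121). Its second probe set was near the floor, between 1.00 and 3.79, and stood at -0.73 (adjusted p = 0.708). With both averaged, the difference of E2f8 was 1.24 and no longer passed (adjusted p = 0.234). E2f7 lay at 4.09, 5.02 and 5.64 in the controls and 6.82, 6.54 and 7.40 in the knockouts, and its difference of 2.00 (SE 0.44) did not pass (adjusted p = 0.18). On both genes the knockout arrays stood above all controls.

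None of the 3 pocket protein genes passed the threshold. Rbl1, which encodes p107, a pocket protein of cycling cells, lay at 7.63, 7.38 and 7.19 in the controls and 8.60, 8.59 and 8.71 in the knockouts (difference 1.23, SE 0.18, 2.35-fold, adjusted p = 0.0702). Rbl2, which encodes p130, the pocket protein of resting cells, lay at 9.47, 9.61 and 9.56 in the controls and 8.90, 9.06 and 8.92 in the knockouts, which leaves 66.7% of the control level. Its difference of -0.58 (SE 0.15, adjusted p = 0.234) did not pass the threshold, and its second probe set stood at -0.55. In both genes the groups did not overlap, with the knockouts above the controls in Rbl1 and below them in Rbl2. Rb1 lay at 9.84, 10.13 and 9.96 in the controls and 9.92, 9.61 and 9.56 in the knockouts (difference -0.28, adjusted p = 0.572), with overlap. Its dimmer probe set lay at 3.51, 3.98 and 3.36 in the controls and 4.94, 4.48 and 4.46 in the knockouts, all above the controls (difference 1.01, SE 0.24, adjusted p = 0.207), so the probe sets of Rb1 disagree in sign.

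Melk, a kinase of dividing cells, had the lowest control values of the genes past the threshold. Melk (1416558_at) lay at 1.99, 2.49 and 1.84 in the controls and 6.88, 6.45 and 7.30 in the knockouts, and rose by 4.77 (SE 0.29, 27.3-fold, adjusted p = 0.0121). Its deposited intensities were 2.97, 4.48 and 2.65 in the controls, near the floor of 1, so that its fold depends on the pseudocount: with a pseudocount of 16 the difference was 2.78. The transcription factors known to act on such genes did not pass the threshold. Foxm1 lay at 6.23, 6.60 and 6.23 in the controls and 6.56, 6.65 and 6.90 in the knockouts (difference 0.35, adjusted p = 0.501), whereas its probe set 1448834_at lay at 3.15, 3.46 and 4.09 and at 5.30, 6.07 and 6.66 (difference 2.44, SE 0.41, adjusted p = 0.0996). In Foxm1, 1417748_x_at and the dim 1437138_at stood at 0.56 and 0.70 (adjusted p = 0.285 and 0.167). All dimmer probe sets of Foxm1 had every knockout above every control. Mybl2, which encodes B-Myb, had a difference of 0.53 (adjusted p = 0.407) and of 0.97 by its dimmer probe set (adjusted p = 0.244). Neither probe set of Mybl2 overlapped between the groups. Lin9, a MuvB subunit, had a difference of 0.58 (adjusted p = 0.476) and of -0.071 by its dimmer probe set. Of the 7 genes past the threshold, 5 had a control mean under 6.10, the median level of all probe sets, so their folds rest on low control signals.

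Among the knockout arrays, 86 was the highest in all 7 genes past the threshold and in 18 of the 22 members with knockouts above controls, and 73 was the lowest of the knockouts in 6 of the 7. Knockout 86 is the female. Without it, all remaining arrays being male, 6 of the 7 genes passed the threshold and Ube2c did not (difference 4.40, adjusted p = 0.0541), and the median of the G2/M members was 0.79. In that fit 0.143% of all genes were higher past the threshold and 0 were lower.

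With 1 array left out, the call depended on how the variance was estimated. None of the 7 passed without control 30, 74 or 75 or without knockout 72, where limma called 0 of all 18193 genes as well (1845 to 2484 at an unadjusted p under 0.05). In these 4 fits 17 to 22 members were still higher at an unadjusted p under 0.05. Of the 7 genes, all except Ube2c passed without knockout 73 or 86, where 0.159% and 0.143% of all genes were higher past the threshold. Cdk1 ranged from 4.14 to 4.62 over these 6 fits, with a highest adjusted p of 0.113. With a trended robust prior, an alternative combined with leaving out arrays after seeing the data, all 7 passed in each of the 6 fits (highest adjusted p 0.0215). Those fits called 77 to 230 of all 18193 genes higher. With all 6 arrays this prior called 12 members, adding Ccne2, Ccnf, Cdc20, Cks1b and Rbl1, against 1.24% of all genes higher.

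**Figure D4:**
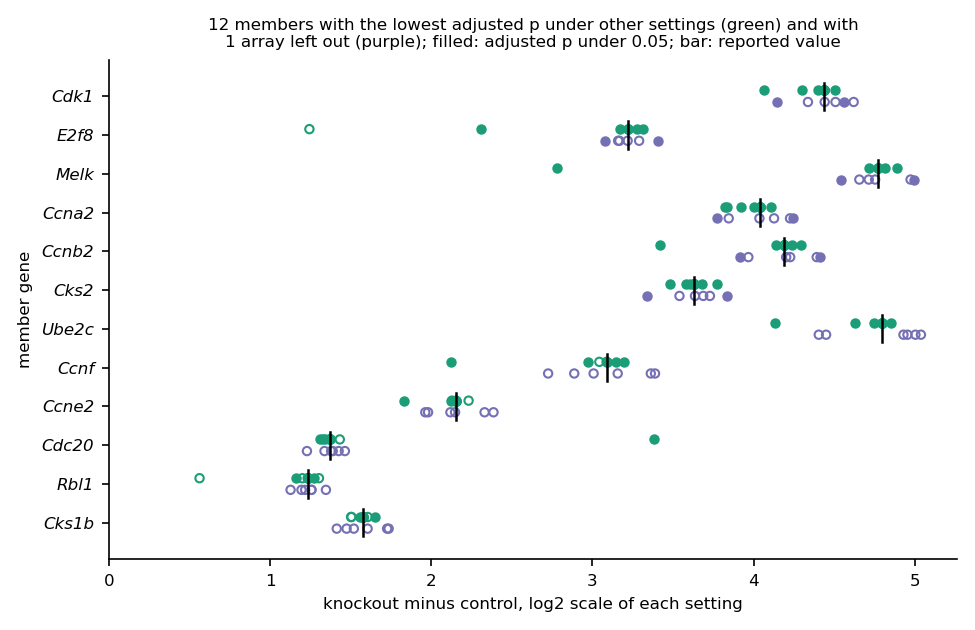
Knockout minus control difference (x axis, log2 scale of each setting) of the 12 members with the lowest adjusted p (y axis) under other settings with all arrays (green) and with 1 array left out (purple); filled points have an adjusted p under 0.05 and the black bar is the reported value. All points lie above 0. Averaging probe sets moved E2f8 to 1.24 and Cdc20 to 3.38, and a pseudocount of 16 moved Melk to 2.78.

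Other genes of the same machinery were read from lists chosen with earlier results of these data known. Over all genes 0.5% were higher past the threshold, 13.7% had an unadjusted p under 0.05 (limma) and 42.6% had a difference above 0. Of 10 mitotic kinase and checkpoint genes, 6 were higher past the threshold, with a median of 2.48: Bub1 rose by 4.28, Aurkb by 2.84, Aurka by 2.72 and Plk1 by 2.28 (adjusted p = 0.0195, 0.019, 0.0342 and 0.0318). Of 12 S phase genes, 2 were higher past the threshold, Rrm2 by 3.49 and Mcm5 by 1.77 (adjusted p = 0.0178 and 0.0317); all 12 had a difference above 0, with a median of 1.07, and Tk1 stood at 4.09 and Mcm6 at 1.22 (adjusted p = 0.0642 and 0.0861). Of 8 genes grouped as CDK inhibitors, 1 passed, the phosphatase gene Cdkn3, which rose by 2.74 (adjusted p = 0.0305), and their median was 0.12. Cdkn1a, which encodes p21, stood at 1.21, Cdkn2d at 1.11 and Cdkn1b, which encodes p27, at -0.47 (adjusted p = 0.284, 0.152 and 0.415). The dimmer probe set of Cdkn1a stood at 2.03 (adjusted p = 0.274). That of Cdkn1b stood at 1.58 with overlap (adjusted p = 0.63), so the probe sets of Cdkn1b disagree in sign.

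Of 11 other APC/C subunits, 15 other cyclins, 6 DREAM and E2F partner genes and 4 SCF subunits on the array, 0 passed the threshold in limma and 0, 0, 1 and 0 had an unadjusted p under 0.05. Their medians were 0.0034, -0.0079, -0.077 and -0.16, with single genes from -0.52 to 0.89. Those with the smallest p were Anapc1 (0.26), Ccno (0.89), Tfdp1 (0.47) and Btrc (-0.52).

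Markers of cell types were read beside these values. The shares over all genes were 0.533% past the threshold, 13.7% at an unadjusted p under 0.05 (limma) and 42.6% with a difference above 0. Of 10 macrophage markers, 0 passed the threshold in limma, 6 had an unadjusted p under 0.05, all 10 had a difference above 0 and the median was 1.66 (1.05 without knockout 73), with Mrc1 at 1.42 and C1qa at 1.29 (adjusted p = 0.204 and 0.222). The mean level of that list ran from 7.77 to 8.70 in the controls and from 9.19 to 10.82 in the knockouts, and was highest in knockout 73 and lowest of the knockouts in 86, the reverse of the order of most cell cycle genes past the threshold. The part of these cells in the results was not tested. Smooth muscle markers ran from 12.07 to 12.67 in the controls and 11.86 to 12.21 in the knockouts (0 of 10 past the threshold and 3 at an unadjusted p under 0.05, median -0.34; Lmod1 at -1.20 and Synpo2 at -0.75), so the labelled tissue carried its defining transcripts on all arrays. Lymphocyte markers (0 of 6, median 0.55, Cd3g at 1.02 and Cd2 at -0.23) ran from 4.15 to 4.84 in the controls and stood at 4.25, 5.91 and 4.22 in knockouts 72, 73 and 86. Knockout 73 alone was above the controls, and without it the median was -0.24. Fibroblast markers (0 of 6, median 0.35 and 0.095 without control 30, Lum at 0.83 and Pdgfra at 0.75) ran from 10.96 to 11.72 and from 11.73 to 11.87, and endothelial markers (0 of 6, median -0.47, Tek at -0.62 and Pecam1 at -0.86) from 11.16 to 11.38 and from 10.60 to 11.14. The white adipocyte, erythroid, Schwann cell, mast cell and intestinal epithelium lists had 5, 3, 2, 4 and 4 genes on the array. They had 0 genes past the threshold and medians of -0.29, -0.29, -0.78, 0.22 and -0.22. Both Schwann cell genes, Sox10 and Mbp, had an unadjusted p under 0.05 (limma) and every knockout below every control by their brightest probe sets. Adipocyte means ran from 9.35 to 11.65 in the controls and from 9.68 to 10.87 in the knockouts, above the median level of all probe sets, 6.10. The adipocyte median was 0.24 without control 74 and 0.14 without knockout 86. In those 8 lists 0 to 3 genes each had an unadjusted p under 0.05.

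**Figure D5:**
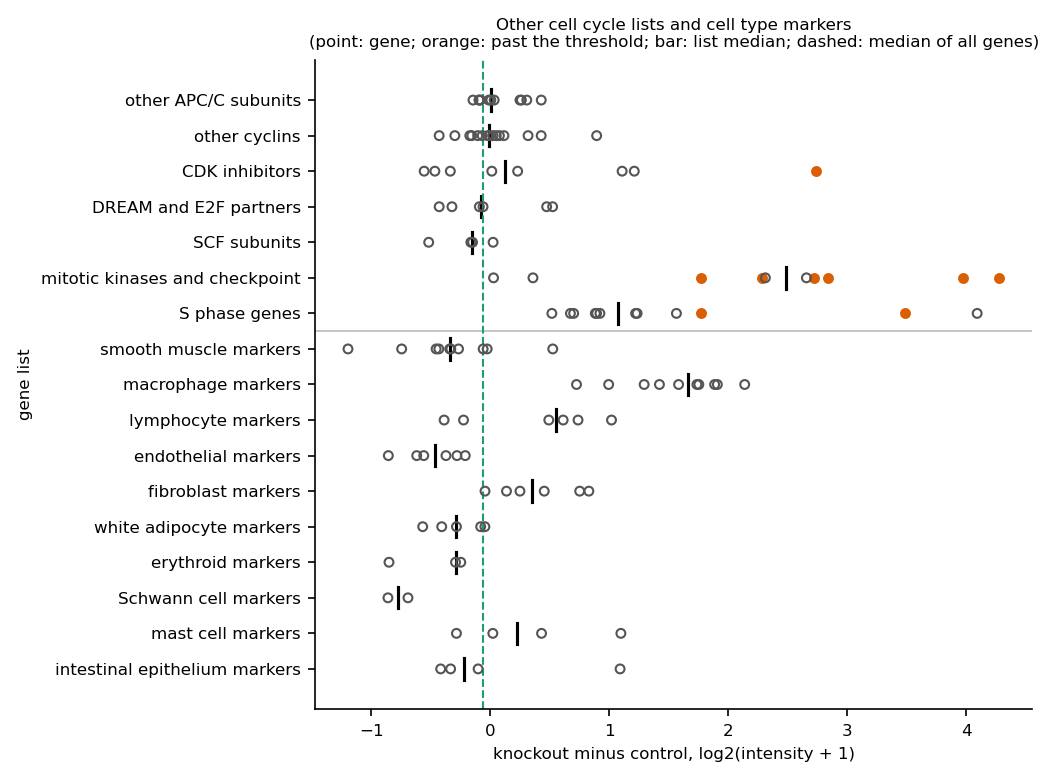
Knockout minus control difference on the log2(intensity + 1) scale (x axis) of each gene in the other cell cycle lists and the cell type marker lists (y axis); orange marks genes past the threshold, black bars the list medians and the dashed line the median of all genes. Mitotic kinases lie highest with a median of 2.48, the medians of other APC/C subunits and other cyclins are 0.0034 and -0.0079, and all 10 macrophage markers lie above 0 without passing the threshold.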

How the data were processed

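RNA from 6 mice was labelled with biotin and hybridised, 1 array per mouse. The authors deposited 1 intensity per probe set, which was assumed here to be linear. Per the labels, RNA was extracted with a Roche MagNA Pure system. The sources used here do not say how probes were summarised or arrays scaled. A probe set was named where GEO's platform annotation gives it 1 symbol (34945 probe sets; 932 have several and 9160 none). Intensities were transformed to log2(intensity + 1), quantile normalized and compared by group with limma (version 3.58.1, R 4.3.3; lmFit and eBayes, 2-sided) over all 45037 probe sets with no filter, with Benjamini-Hochberg adjustment over all of them. The procedure was run on simulated data with independent noise drawn from limma's own variance prior. Such a run cannot test whether these arrays follow that model. All members could be named; of the other lists, up to 4 genes (cell cycle) or 2 (cell types) with the smallest p. Members, phase classes and lists were chosen with earlier results of these data known. Nothing in the labels names litters or days, so neither could be modelled. With 1 array per mouse, the spread behind the p-values joins differences between animals and between array runs. The variances were also drawn towards the prior of limma. The number of arrays limits the precision. Alternatives changed normalization, pseudocount, filter, probe set choice, prior, weights, threshold and arrays.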

Additional observations from a re-analysis of the deposited data

How the results depend on the processing

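Lower calls were 0 under every setting. As reported, 7 members and 0.5% of all genes were higher. The member count was 12 with a pseudocount of 16 and with a fit by gene (1.06% and 0.863% of all genes higher). It was also 12 with the trended robust prior and at an adjusted p under 0.1 (1.24% and 0.962% of all genes). With averaged probe sets or array weights it was 11 (0.671% and 0.693% of all genes). In each of these 6 alternative settings, and with the filter at the median, 1 G1 member, Ccne2, was among those called. Averaged probe sets called 7 G2/M members. Over the fits without 1 array, with both priors, member calls ran from 0 to 12, G2/M calls from 0 to 6 (to 3 with the reported prior) and G1 calls from 0 to 1. The G1 median was 0.32 with averaged probe sets and 0.33 without suffixes x and s; the narrow G2/M class gave 2.78. The filters at the median and at the 70th percentile left 36 and 25 members. They called 9 and 6 of these higher, against 1.41% and 1.14% of all genes left. These filters used the mean over all 6 arrays, so genes low in the controls could pass through their knockout values. Cdk1, with a control mean of 5.59, passed both filters, so these counts are no separate support for the calls.

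Signs turned for values that were not called. Without normalization Ccne1 was 0.063 and E2f2 0.018, with median centring Ccnd3 was -0.068, and with array weights Ccne1 was 0.021. Without suffixes x and s Ccne1 was 1.18 and Ube2s -0.22. Averaged probe sets gave Ccnd1 0.084, Ccnd3 -0.22, Ccne1 0.58, Pkmyt1 -0.57, Cdc16 -0.019, Anapc5 0.030, Cdk7 -0.088, E2f2 0.50, E2f6 -0.080 and Rb1 0.37. With 1 array left out Ccnd3 ran from -0.062 to 0.086, Ccne1 from -0.099 to 0.040, Cdc25a from -0.025 to 0.14, E2f2 from -0.21 to 0.056 and E2f6 from -0.077 to 0.21. The cause was not tested. No paired analysis was possible, because each mouse was in 1 group and the labels name no litters or days by which mice could be paired. Low control signals limit the folds of 5 of the 7 genes past the threshold.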
